A study of Mus musculus with 12 samples.

Results

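Translation initiation and elongation factors are the proteins that place a ribosome on the start codon of an mRNA and then carry it along the coding sequence. Their genes were taken as all annotated symbols that begin with Eif and a number from 1 to 6, or with Eef and 1 or 2, together with the kinases, inhibitors and methyltransferases that share these names. Of the 19031 genes named on the mouse array, 63 met this rule, and 51 of them had a probe bright enough to test, among 10112 genes tested in all. Each gene is given by its brightest detected probe as a log2 signal after background correction and quantile normalization. Levels of different genes are not set against each other, since each rests on a probe of its own.

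The arrays were Illumina bead arrays of total RNA from C57Bl/6 mouse prostate stem cells in culture, with the source named as prostate tissue in the labels. The 3 cultures compared each had 3 replicate arrays and 1 further array of a pool. Mouse 1 gave an adherent monolayer and a spheroid culture, and mouse 2 gave an adherent monolayer. The labels give no treatment, genotype change, age or culture time, and they do not say whether replicates were separate cultures, and the p-values here reflect the spread among arrays alone, which may be technical. The spheroid group is 1 culture from 1 mouse, and its difference from adherent mouse 1 is the contrast within that animal. All 10 basal epithelial markers listed, Krt5, Krt14 and Trp63 among them, were detected in these cells. Adherent mouse 2 replicate 1 stood apart from the other arrays of its culture: its mean absolute deviation from the culture mean over the translation factor genes was 0.24 on the log2 scale, against 0.12 and 0.16 for the other arrays of that culture and 0.06 to 0.10 for the arrays of the other cultures. Those other arrays share 1 header name in the deposited table and are called array a and array b.

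Initiation starts when the GTPase eIF2 brings initiator tRNA to the small ribosomal subunit, where eIF1, eIF1A, eIF3 and eIF5 assemble with it. The eIF4 proteins bind the mRNA cap and unwind the leader, eIF5B joins the large subunit, and eEF1 and eEF2 then drive each round of elongation. Cells tune the process at a pair of known points: phosphorylation of eIF2, which blocks its exchange factor eIF2B, and the eIF4E-binding proteins, which withhold the cap-binding protein when mTORC1 signalling is low.

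Most of these genes were slightly lower in spheroid than in adherent culture, and few were lower by a large factor. Against the average of both adherent cultures, 8 of 51 fell and 1 rose at a limma adjusted p under 0.05 with at least a 2-fold difference, the rule by which a gene is called here. Of all tested genes 13.4% fell and 13.1% rose by this rule, so the share of translation factors that fell, 15.7%, was near the background and the share that rose, 1.96%, was below it. By adjusted p alone 33 of 51 were lower (64.7%, against 34.4% of all genes) and 6 were higher (11.8%, against 29.3%). The sign of the difference was negative for 40 of the 51 genes and for 53.1% of all genes. The median log2 difference of the translation factors was -0.47, with quartiles at -0.71 and -0.03, while that of all tested genes was -0.06, with quartiles at -0.58 and 0.47.

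All 3 spheroid arrays lay below all 6 adherent arrays for 26 of the 51 genes (28.6% of all genes did so), and above them for 4 genes (25% of all genes). The counts depended on how the arrays were scaled. With each array scaled to its median instead of by quantiles, the median of all genes moved to -0.35 and 23 translation factors fell while none rose, against 23% and 8.71% of all genes. The translation factors' median remained 0.57 below that of all genes there, compared with 0.41 below it under quantile normalization. With cyclic loess 5 fell and 1 rose, against 10.5% and 14.5% of all genes, and their median was 0.35 below that of all genes. None of the 33 genes lower by adjusted p changed sign under these scalings, but 4 of the 6 higher ones (Eef1b2, Eif2ak1, Eif3f and Eif6) did so under median scaling. In all 14 of the 51 genes had a sign that depended on the scaling.

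Other features of the cells moved with the same contrast, in which 13.1% of all tested genes rose and 13.4% fell. All 11 proliferation markers tested fell, and their summed signal was 21176 to 22129 in adherent mouse 1, 19549 to 22704 in adherent mouse 2 and 2371 to 2479 in spheroids. Squamous differentiation markers rose in 10 of 12 tested cases and fell in 1, with summed signals of 5914 to 6963, 9408 to 9769 and 80136 to 80327 in the same order, while Krt1, Tgm3 and Dsg1a were not detected. The summed signal of fibroblast and smooth muscle markers was 20968 to 24291, 22109 to 28172 and 1708 to 1750, of which only Acta2 fell among the 3 tested, while 8 defining genes such as Col1a1, Col3a1 and Dcn were not detected. Luminal epithelial markers rose in 4 of 7 tested cases (Krt19 by 5.78, Psca by 5.46, Elf3 by 4.56 and Cldn4 by 1.87) and fell in 1 (Krt18), summing to 8580 to 8987, 10327 to 11340 and 38106 to 39850, with Pbsn not detected. Krt19 was at 7.75 against adherent mouse 1, where it was detected on 1 replicate array, and at 3.82 against adherent mouse 2. Of the basal markers Krt15 rose by 2.73 and Lgals7 fell by 1.72, with sums of 70344 to 74466, 73069 to 83926 and 92582 to 95326. Lgals7 was at -2.88 against adherent mouse 1 but -0.57 against adherent mouse 2, and its other probes gave 0.16 and -0.89. Leukocyte markers summed to 457 to 543, 296 to 325 and 1664 to 1893: Cd14 rose by 2.81 and Cd52 by 1.41 among 4 tested, while Ptprc, Lyz2, Itgam and Adgre1 were not detected. Cd52 was not detected on any adherent replicate array, so the size of its rise depends on how undetected signal is scaled. The only neuroendocrine marker tested, Ncam1, fell by 2.17, though its other probes gave -0.06 and -0.81, and none of the 3 endothelial markers tested was called. The part these features play in the translation factor differences was not tested, and in bulk RNA fewer cells of a type and less RNA per cell cannot be told apart.

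**Figure D1:**
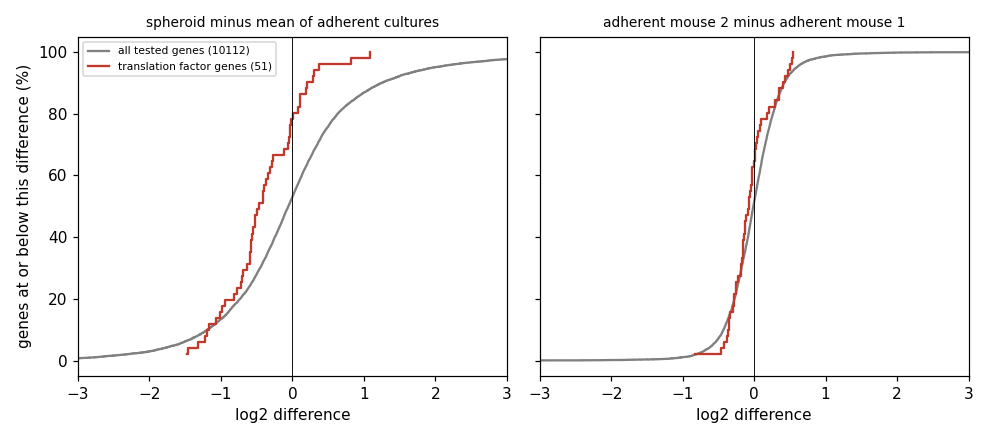
Cumulative share of genes (percent, vertical axis) at or below a log2 difference (horizontal axis) for the 51 translation factor genes in red and all 10112 tested genes in grey, for spheroid minus the mean of both adherent cultures at left and adherent mouse 2 minus adherent mouse 1 at right. At left the red line lies above the grey line over most of its range, with medians of -0.47 and -0.06, while at right the medians are -0.08 and -0.01.

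The subunits that deliver initiator tRNA held 2 of the 8 genes that fell. Eif2s2, the beta subunit of eIF2, read 10.86, 10.90 and 11.07 in adherent mouse 1, 10.59, 10.62 and 10.58 in adherent mouse 2, and 9.41, 9.28 and 9.63 in spheroids. Every spheroid array was below every adherent array, and mouse 1 was the higher of the adherent cultures. The log2 difference was -1.33 ± 0.09 (SE, adjusted p = 1.70e-08, limma), a 2.51-fold lower signal, and the other passing probe of the gene gave -1.41. Eif2s3x, the X-linked gamma subunit that binds the tRNA and GTP, read 9.32, 9.26 and 9.39 in adherent mouse 1. Its signal was 9.10, 10.12 and 10.27 in adherent mouse 2 and 8.75, 8.57 and 8.38 in spheroids. Both groups stayed apart, but mouse 2 replicate 1 was about 1 log2 unit below its companions. Its difference of -1.01 ± 0.20 (adjusted p = 0.000606, limma) sat at the 2-fold limit and was -0.91 without array b and -0.94 without array a of adherent mouse 2. It was -0.996 without adherent mouse 1 replicate 3 and -0.92 without spheroid replicate 3, so each of these 4 omissions ended the call, as did cyclic loess (-0.83), an offset of 50 (-0.95), the authors' normalized values (-0.86), no background correction (-0.83) and the pool arrays (-0.82). Against adherent mouse 1 alone it was -0.76 and was not called.

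Eif2a, an initiator tRNA-binding protein that is not a subunit of eIF2, and Eif2d, which can also place tRNA on the small subunit, did not meet the call rule. Eif2a was lower by adjusted p alone at -0.60 ± 0.09 (adjusted p = 5.96e-05, limma), and Eif2d stood at -0.02 ± 0.09 with an adjusted p of 0.900 by limma, or at -0.52 under median scaling.

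The 5 subunits of eIF2B, which reloads eIF2 with GTP, differed among themselves. The regulatory alpha subunit Eif2b1 read 9.85, 9.89 and 10.001 in adherent mouse 1, 9.76, 10.06 and 9.99 in adherent mouse 2, and 8.84, 8.63 and 8.72 in spheroids. The spheroid values were all about 1 unit below the adherent ones, with no overlap, and the gene fell by 1.19 ± 0.09 on the log2 scale (adjusted p = 8.51e-08, limma). Eif2b4, the delta subunit, read 9.25, 9.22 and 9.25, then 9.17, 9.12 and 8.94, then 9.10, 9.20 and 9.21 in the same order. Its groups overlapped, and its difference was 0.01 ± 0.09 (adjusted p = 0.910, limma), but -0.47 under median scaling (adjusted p = 0.000622) and 0.18 under cyclic loess. Between these extremes lay Eif2b3 at -0.78, Eif2b5, the catalytic epsilon subunit, at -0.42 and Eif2b2 at -0.37, each lower by adjusted p but by less than 2-fold. The difference between subunits was not itself tested.

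Of the 3 tested kinases that phosphorylate eIF2, 1 rose (13.1% of all genes did so) and none was lower by adjusted p. Under median scaling, however, Eif2ak2 was lower and Eif2ak1 had a negative sign. Eif2ak3 (PERK, the kinase of endoplasmic reticulum stress) was the one member that rose. Its probe was dim, at 4.86, 4.73 and 4.57 in adherent mouse 1 and 5.40, 5.48 and 6.01 in spheroids, and it was not detected on any replicate array of adherent mouse 2, where it read 4.34, 4.59 and 4.22. Spheroid arrays were above all adherent arrays, with replicate 3 the highest. The measured log2 difference from the adherent average was 1.08 ± 0.18 (adjusted p = 0.000139, limma). With mouse 2 values raised to the lowest detected signal of their array where they were below it, the spheroid signal was 2.00-fold above the adherent average. It was then 2.13-fold above adherent mouse 2. The raised values were not tested and are not strict limits, and the pool array of adherent mouse 2 read 5.05. Against adherent mouse 1, where the probe was detected on all replicate arrays, the difference was 0.91 ± 0.21 and was under 2-fold. Without spheroid replicate 3 the difference from the average was 0.90, which ended the call. The measured 1.08 also went under the limit with median scaling (0.92), on the pool arrays (0.65), with an offset of 50 (0.54), in the authors' normalized values (0.32) and without background correction (0.27). Eif2ak1, the heme-regulated kinase, was 0.37 ± 0.13 higher by adjusted p alone (adjusted p = 0.0226, limma), or -0.12 under median scaling. Eif2ak2 (PKR, the double-stranded RNA kinase) stood at 0.11 ± 0.10 with an adjusted p of 0.356 by limma, and at -0.38 under median scaling (adjusted p = 0.0135). Eif2ak4 (GCN2, the amino acid sensor) was detected on at most 1 of 9 replicate arrays and was not tested.

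**Figure D2:**
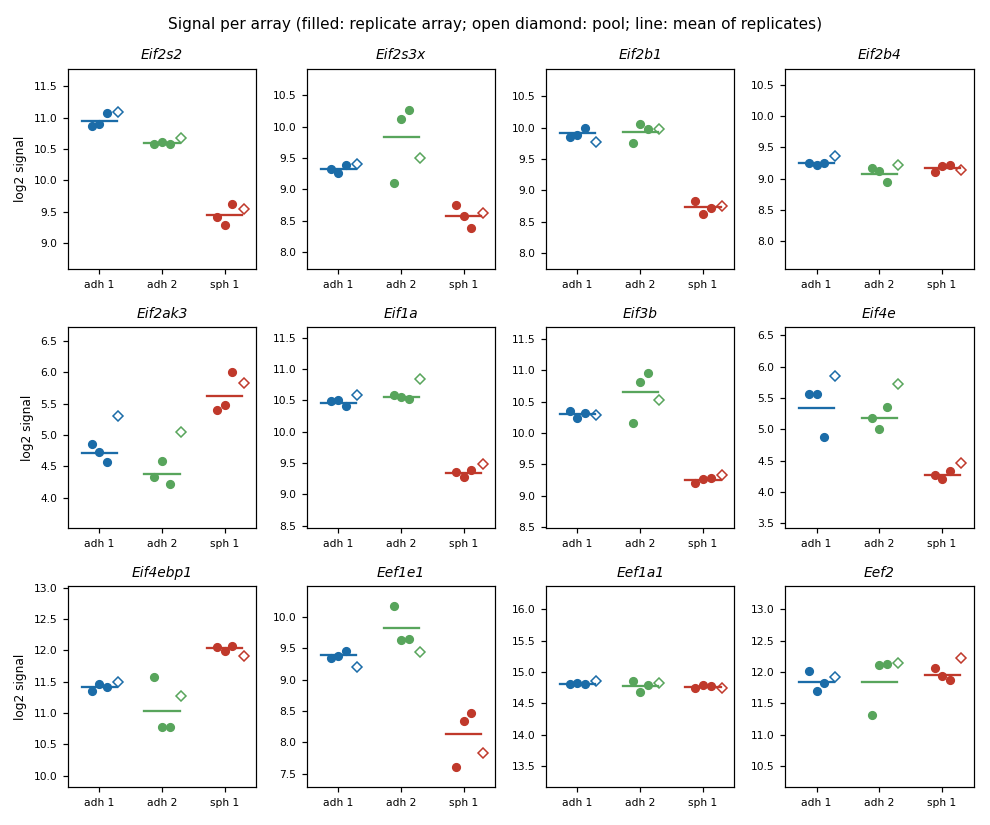
Normalized log2 signal (vertical axis, the same span of log2 units in every panel) of 12 translation factor genes on each array of adherent mouse 1 (blue), adherent mouse 2 (green) and spheroid mouse 1 (red), with filled points for replicate arrays, lines for their means and open diamonds for the pool arrays. Spheroid replicate arrays lie below the adherent ones for Eif2s2, Eif2s3x, Eif2b1, Eif1a, Eif3b, Eif4e and Eef1e1, above them for Eif2ak3 and Eif4ebp1, and among them for Eif2b4, Eef1a1 and Eef2.

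Factors of start-site scanning and subunit joining held 2 genes that fell among 6 tested, while 13.4% of all genes fell. Eif1a, which encodes eIF1A, a protein that holds the small subunit in its scanning state, read 10.48, 10.50 and 10.41 in adherent mouse 1, 10.58, 10.55 and 10.52 in adherent mouse 2, and 9.35, 9.28 and 9.39 in spheroids. Replicates within a culture lay far closer together than spheroid and adherent arrays did. Its log2 difference was -1.17 ± 0.07 (adjusted p = 6.93e-09, limma), and under cyclic loess -0.99, just under 2-fold. Eif1ad, a protein with an eIF1A-like domain, read 10.35, 10.28 and 10.15, then 10.15, 9.68 and 9.68, then 8.88, 8.97 and 9.07. Spheroid arrays were again lowest without overlap, and the gene fell by 1.07 ± 0.11 (adjusted p = 1.60e-06, limma), or by 0.99 without adherent mouse 2 replicate 1, which is under 2-fold. The call was also lost under cyclic loess (-0.89), without background correction (-0.92), in the authors' normalized values (-0.95) and in the mean of its probes (-0.86).

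Of the other joining factors, Eif5, the GTPase activator of eIF2, was at -0.50 ± 0.07, Eif1b at -0.53 ± 0.10 and Eif5b at -0.71 ± 0.19, all lower by adjusted p alone. Eif5b read 6.69, 6.98 and 6.65 in adherent mouse 1, 6.08, 5.96 and 5.79 in adherent mouse 2, and 5.59, 6.14 and 5.23 in spheroids. It therefore separated spheroids from adherent mouse 1, where it fell by 1.12 (adjusted p = 0.000617, limma), but overlapped with adherent mouse 2. Eif6, which keeps the ribosomal subunits apart and acts in making the large subunit, was higher by 0.30 ± 0.08 (adjusted p = 0.00382, limma), but -0.20 under median scaling and -0.14 by its other probe.

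The scaffold eIF3 had 10 tested subunits, of which 1 fell (13.4% of all genes did so), with a median of -0.43. By adjusted p 7 were lower (34.4% of all genes) and 1 was higher (29.3%). Eif3b, a core subunit that binds the small ribosomal subunit, read 10.36, 10.23 and 10.32 in adherent mouse 1, 10.17, 10.82 and 10.96 in adherent mouse 2, and 9.21, 9.27 and 9.28 in spheroids. Spheroid arrays lay close together and below every adherent array. The log2 difference was -1.23 ± 0.14 (adjusted p = 3.62e-06, limma), whereas the other probe gave -0.61 and the mean of both probes was -0.92, under the fold limit. Eif3j1, a loosely attached subunit, stood at -0.94 ± 0.19, Eif3d at -0.69 and Eif3a, the largest scaffold subunit, at -0.58.

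At the other end of the complex, Eif3h stood at 0.29 ± 0.23 and Eif3f at 0.20 ± 0.06, and Eif3k at -0.04 ± 0.29, with 0.11 under cyclic loess and -0.97 by its other probe. Eif3f was bright, at 13.65, 13.60 and 13.56, then 13.64, 13.52 and 13.39, then 13.75, 13.77 and 13.76 in spheroids. The spheroid arrays were highest by a narrow margin (adjusted p = 0.00959, limma), and the sign turned to -0.22 under median scaling. Eif3e and Eif3m were detected on at most 4 and 2 of 9 replicate arrays and were not tested.

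**Figure D3:**
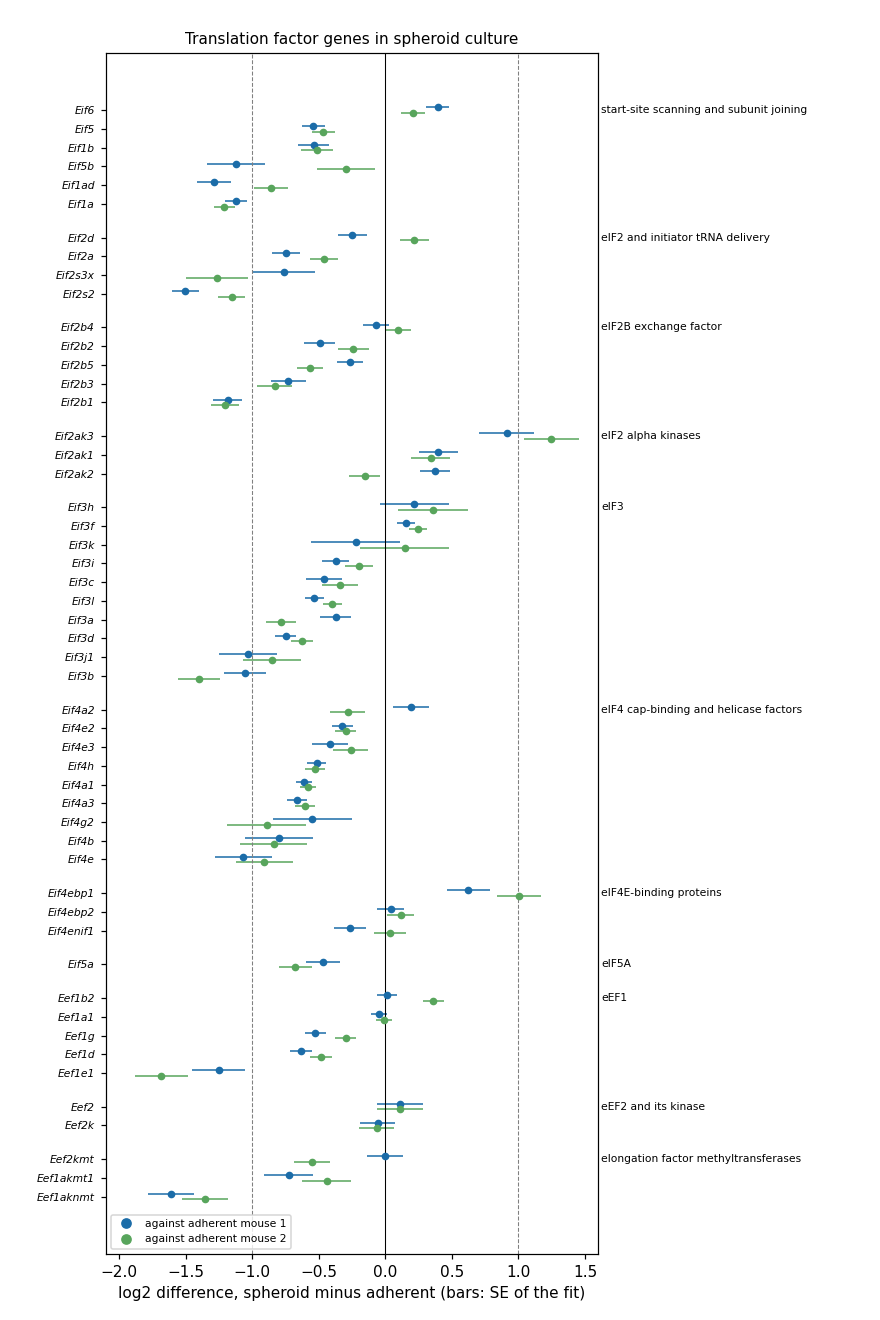
Log2 difference (horizontal axis) of spheroid mouse 1 from adherent mouse 1 (blue) and from adherent mouse 2 (green) for the 51 tested translation factor genes, grouped by role, with bars for the standard error of the fit and dashed lines at the 2-fold limits. Eif2s2, Eif2b1, Eif1a, Eif3b, Eef1e1 and Eef1aknmt lie beyond the lower line in both contrasts, and Eif2ak3 and Eif4ebp1 are the rightmost genes.

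Cap-binding and helicase factors were lower together by small amounts. All 9 tested had a negative difference (53.1% of all genes did so) and 8 were lower by adjusted p (34.4% of all genes). None reached 2-fold against the adherent average, and their median was -0.60. Eif4a1, the main RNA helicase of the cap complex, read 13.71, 13.71 and 13.74 in adherent mouse 1, 13.66, 13.74 and 13.67 in adherent mouse 2, and 13.16, 13.11 and 13.05 in spheroids. The gap of about 0.6 was several times the spread within a culture (-0.60 ± 0.05, adjusted p = 2.50e-07, limma). Its paralogue Eif4a2 read 11.51, 11.59 and 11.61, then 11.65, 12.19 and 12.30, then 11.85, 11.74 and 11.70, so the groups overlapped, and its difference was -0.04 ± 0.11 (adjusted p = 0.750, limma), or 0.12 under cyclic loess and -0.54 under median scaling. Eif4a3, the helicase of the exon junction complex, was at -0.63, Eif4b and Eif4h, which assist the helicase, at -0.82 and -0.52, and Eif4g2, a scaffold that acts without the cap-binding protein, at -0.72.

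Eif4e, the cap-binding protein itself, had a dim probe that was detected on all adherent replicate arrays and on none of the spheroid ones. It read 5.56, 5.57 and 4.89 in adherent mouse 1, 5.18, 5.0 and 5.36 in adherent mouse 2, and 4.28, 4.21 and 4.33 in spheroids. The groups did not overlap, and the measured log2 difference from the adherent average was -0.99 (adjusted p = 0.000361, limma). With spheroid values raised to the lowest detected signal of their array, the signal was 1.73-fold lower than the adherent average. It was then 1.82-fold lower than in adherent mouse 1, where the measured difference of -1.07 met the call rule, and 1.63-fold lower than in adherent mouse 2. The raised values were not tested and are not strict limits. They also belong to this scale: with an offset of 50 the measured difference from mouse 1 was -0.49, in the authors' normalized values -0.32 and without background correction -0.28. Eif4e2 and Eif4e3, related cap-binding proteins, were at -0.31 and -0.34, and another probe of Eif4e2 gave 0.34.

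None of the 3 tested eIF4E-binding proteins was lower in spheroids by adjusted p, although Eif4ebp2 and Eif4enif1 were lower under median scaling, at -0.40 and -0.61. Eif4ebp1 (4E-BP1), the repressor that mTORC1 inactivates by phosphorylation, read 11.36, 11.47 and 11.42 in adherent mouse 1, 11.57, 10.77 and 10.77 in adherent mouse 2, and 12.05, 11.99 and 12.08 in spheroids. All spheroid arrays were above all adherent arrays, and replicate 1 of mouse 2 was nearer to mouse 1 than to its own culture. The difference from the average was 0.81 ± 0.14 (adjusted p = 0.000210, limma), which is under 2-fold, and 0.31 under median scaling. Against adherent mouse 2 it was 1.00 and just met the call rule, which it lost without array a (0.87) or array b (0.87) of that culture. It was also just under the limit without adherent mouse 1 replicate 3, spheroid replicate 1 (0.998) or spheroid replicate 3 (0.98). Eif4ebp2 stood at 0.08 ± 0.09 and Eif4enif1, which carries eIF4E into the nucleus and to RNA granules, at -0.12 ± 0.10. Eif4ebp3 was not detected on any replicate array.

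The core elongation factors were not called, and the sign of their differences depended on the scaling. Eef1a1, which brings aminoacyl-tRNA to the ribosome, read 14.81, 14.83 and 14.81 in adherent mouse 1, 14.86, 14.68 and 14.79 in adherent mouse 2, and 14.74, 14.79 and 14.77 in spheroids. The groups overlapped, with a difference of -0.03 ± 0.05 (adjusted p = 0.635, limma). Its raw signal reached 31595, close to the brightest values the arrays give, where a difference may not register, so these values do not show that the gene was stable. Under cyclic loess the same probe gave 0.49 (adjusted p = 6.17e-06). Its other probes gave 0.19 and 0.05, but the former was dim, at 4.84 to 5.51 on the replicate arrays. The latter, at 14.53 to 14.89, was about as bright as the main probe and has the same limit. Eef2, the translocase, read 12.02, 11.69 and 11.83, then 11.32, 12.11 and 12.12, then 12.07, 11.94 and 11.87. These values overlapped as well, with a difference of 0.11 ± 0.15 (adjusted p = 0.539, limma), and its inhibitor kinase Eef2k stood at -0.06 ± 0.11. Under median scaling Eef1a1 stood at -0.11, Eef2 at -0.39 and Eef2k at -0.44, and under cyclic loess Eef2 stood at 0.27 and Eef2k at 0.05.

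The exchange factor subunits of eEF1 were not alike. Eef1d and Eef1g were lower by adjusted p, at -0.56 ± 0.07 and -0.41 ± 0.07, and the other probe of Eef1d gave -1.70. Eef1b2 was at 0.19 ± 0.07 (adjusted p = 0.0253, limma), turned to -0.28 under median scaling, and its other probes gave -0.08 and -0.16. Eef1e1, a scaffold member of the complex of aminoacyl-tRNA synthetases, read 9.35, 9.37 and 9.45 in adherent mouse 1, 10.17, 9.64 and 9.66 in adherent mouse 2, and 7.61, 8.34 and 8.46 in spheroids. Spheroids were lower on every array, with replicate 1 the lowest, and the difference was -1.47 ± 0.17 (adjusted p = 5.71e-06, limma). Against adherent mouse 1 it was -1.25, or -0.99 without spheroid replicate 1. Eif5a, which relieves stalled ribosomes and carries the modified residue hypusine, was at -0.57 ± 0.11 (adjusted p = 0.000417, limma).

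Of 3 tested enzymes that methylate elongation factors, 1 fell, while 13.4% of all genes did so. Eef1aknmt, which methylates eEF1A, read 7.62, 7.66 and 7.55 in adherent mouse 1, 7.39, 7.45 and 7.22 in adherent mouse 2, and 6.37, 5.71 and 5.91 in spheroids. The spheroid arrays were lowest without overlap, and the difference was -1.48 ± 0.15 (adjusted p = 1.35e-06, limma). Its probes disagreed: the other passing ones gave -1.38 and 0.10, and the mean of the probes was -0.92, under the fold limit. The authors' normalized values gave -0.87 and no background correction -0.69, also under it. Eef1akmt1 stood at -0.58 ± 0.16, lower by adjusted p, and Eef2kmt at -0.28 ± 0.12 (adjusted p = 0.0525, limma).

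Promoters of these genes were also read for a motif. The motif CACGTG, the core E-box bound by Myc and related factors, reads the same on both strands and was searched in RefSeq windows (GRCm38.p6) from 250 bases before to 50 bases after each start. Windows were given for 40 of the 51 tested genes, and 11 of these 40 (27.5%) held the motif, against 12% of the 8220 tested genes with a window. Per window the shares were 13 of 53 (24.5%) and 10.1%, and 7.15% of all 32851 windows held it. It was found in 7 of the 25 genes lower by adjusted p, in 1 of the 4 higher ones and in 3 of the 11 others. A match describes these letters only, and binding was not measured. Stretches of 4 windows, all before the start and on the gene's strand, are shown because they come from genes that fell (Eef1aknmt), were lower by adjusted p alone (Eif4a1), were not past the adjusted p (Eef2) or were slightly higher (Eif3f). Capitals mark the motif, which begins 147, 189, 43 and 68 bases before the start in this order.
Eef1aknmt, chr1:162548440-162548539, minus strand: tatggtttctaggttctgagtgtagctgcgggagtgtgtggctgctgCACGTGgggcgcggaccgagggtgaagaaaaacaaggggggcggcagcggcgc
Eif4a1, chr11:69672560-69672659, minus strand: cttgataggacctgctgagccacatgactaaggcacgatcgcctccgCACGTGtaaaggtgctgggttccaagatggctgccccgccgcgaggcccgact
Eef2, chr10:81176541-81176630, plus strand: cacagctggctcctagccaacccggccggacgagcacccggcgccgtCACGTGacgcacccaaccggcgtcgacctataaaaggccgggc
Eif3f, chr7:108934300-108934399, plus strand: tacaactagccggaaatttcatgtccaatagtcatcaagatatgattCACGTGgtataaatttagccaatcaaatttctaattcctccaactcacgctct

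Each adherent culture was also used alone as the reference. Both contrasts share the spheroid arrays, so their values are given side by side. Against adherent mouse 1, the same animal, 10 of 51 genes fell and none rose, while 14.1% and 13.4% of all genes did so, and by adjusted p alone 32 were lower (32.2% of all genes) and 5 higher (26.6%). Against adherent mouse 2, 7 fell and 2 rose, compared with 13.6% and 13.2% of all genes, and by adjusted p alone 29 were lower (32% of all genes) and 4 higher (28%). The median differences of the translation factors were -0.49 and -0.44, and those of all genes -0.06 and -0.05. Eif3j1 (-1.03), Eif4e and Eif5b fell against mouse 1 and did not meet the rule against mouse 2, where they stood at -0.85, -0.91 and -0.29. Leaving out a single array could end each of these calls: Eif3j1 was at -0.87 without mouse 1 replicate 2 and -0.90 without spheroid replicate 1, and Eif5b at -0.92 without spheroid replicate 3. Eif4e was at -0.96 and -0.95 without adherent mouse 1 replicates 1 and 2 in turn. With all arrays kept, Eif3j1 and Eif5b also lost the call with an offset of 50 (-0.63 and -0.76) and in the authors' normalized values (-0.38 and -0.53). The same held without background correction (-0.325 and -0.42) and under cyclic loess (-0.84 and -0.95). Eif2s3x was called against mouse 2 and not against mouse 1, and Eif1ad against mouse 1 and not against mouse 2, where it stood at -0.86. The contrasts differ by the difference between the adherent cultures, which is the next comparison.

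Adherent mouse 2 against adherent mouse 1 shows how far separate adherent cultures differed in these genes. None of the 51 was called, while 2.46% of all genes were, and 17 had an unadjusted p under 0.05 by limma (28.2% of all genes). By adjusted p alone 4 were higher in mouse 2 (6.43% of all genes) and 5 lower (6.92%). Eef2kmt at 0.55, Eif2ak2 at 0.53, Eif4a2 at 0.48 and Eif3a at 0.41 were the higher ones, and Eif5b at -0.83, Eif2d at -0.47, Eif1ad at -0.43, Eef1b2 at -0.35 and Eif2s2 at -0.35 the lower ones. Eif2ak2 read 7.92, 7.82 and 7.83 in mouse 1, 8.37, 8.37 and 8.42 in mouse 2 and 8.32, 8.30 and 8.08 in spheroids of mouse 1, so on this scale the spheroid values lay nearer to those of the other mouse. Median scaling reversed this, with spheroids 0.004 from adherent mouse 1 and -0.77 from adherent mouse 2. Without mouse 2 replicate 1 the counts by adjusted p were 10 higher and 14 lower of 52 tested, while 15.7% and 17.8% of all genes were so. Omitting any other single replicate array gave 1 to 3 higher and 0 to 4 lower. Of all genes 3.22% to 5.31% were then higher and 3.18% to 5.67% lower. Under median scaling 8 were higher and 0 lower (14.2% and 2.99% of all genes), so none of the 5 lower ones kept an adjusted p under 0.05.

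The 12 untested members were at or near the detection limit in all cultures. Eef1akmt2, Eif2s3x-ps1, Eif4ebp3, Eif4g3 and Eif5a2 were detected on none of the 9 replicate arrays by any probe, and Eef1a2, the isoform of muscle and neurons, Eif1ax and Eif2ak4 on 1. Eif2s3y and Eif3m were detected on 2, Eif4e1b on 3 and Eif3e on 4. The 63 named genes did not include Eif1, Eif2s1, Eif3g or Eif4g1, so these factors were not covered. Among the tested genes, 29 had further passing probes, and 31 of these 41 probes had the sign of the brightest one, 26 lying within 0.25 of it and 7 more than 0.5 away.

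Genes that act on or beside these factors were counted in 6 lists. By the call rule 13.1% of all tested genes rose and 13.4% fell, so a few calls in a list say little about it. In the list of integrated stress response outputs, the genes induced when eIF2 is phosphorylated, 8 of 13 rose and none fell, with a list median of 1.44. Ppp1r15a (GADD34, the phosphatase subunit that reverses eIF2 phosphorylation) rose by 3.18 ± 0.11 (adjusted p = 3.21e-11, limma), Nupr1 by 2.25 and Ddit3 (CHOP) by 2.00. The adherent cultures differed in Ppp1r15a, which was at 3.79 against adherent mouse 1 and 2.58 against adherent mouse 2. Slc7a11 rose by 1.71, Cebpg by 1.51, Atf5 by 1.47, Chac1 by 1.44 and Cebpb by 1.11, while other probes gave 0.47 for Slc7a11 and 0.32 for Cebpg. The transcript of Atf4, the central factor of that response, which is mainly controlled through its translation, was at -0.49 ± 0.17, and Asns was at -0.59 ± 0.12, both lower by adjusted p alone. Against adherent mouse 1 they stood at -0.82 and -0.87. Against adherent mouse 2 they stood at -0.16 and -0.31, and neither was lower by adjusted p. Phosphorylation was not measured.

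Among 15 partners at the cap and poly(A) tail, 3 rose and 1 fell. Mknk2, a kinase of eIF4E, rose by 1.95 ± 0.10 (adjusted p = 1.17e-09, limma), Pdcd4, an inhibitor of the eIF4A helicase, by 1.06 and Paip2, an inhibitor of poly(A)-binding protein, by 1.01, while Pabpc4, a poly(A)-binding protein, fell by 1.10. Against adherent mouse 1 only Mknk2 rose, with Pdcd4 at 0.77 and Paip2 at 0.83, under 2-fold. Other probes of Pdcd4 gave 0.73, 1.02 and 0.55 against the average. Of 16 tested genes in the mTORC1 list 1 rose, namely Tsc1, a brake on mTORC1, at 1.32 ± 0.20, whose other probes gave 0.26 and 0.50. The S6 kinase genes of this list were not tested: Rps6kb2 had no passing probe and Rps6kb1 was not named on the array. Release and recycling factors held 1 fall among 7 (Pelo, a rescue factor of stalled ribosomes, at -1.02) and 6 of 7 lower by adjusted p (34.4% of all genes).

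Of 6 tested enzymes that modify eEF2 or eIF5A, only Dph2, of diphthamide synthesis on eEF2, fell, at -1.36 ± 0.10 (adjusted p = 6.18e-08, limma). Mitochondrial translation factors held 2 falls among 10, Mtif3 at -1.504 and Gfm1 at -1.20, and a list median of -0.17. The other probe of Mtif3 gave 0.05.

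**Figure D4:**
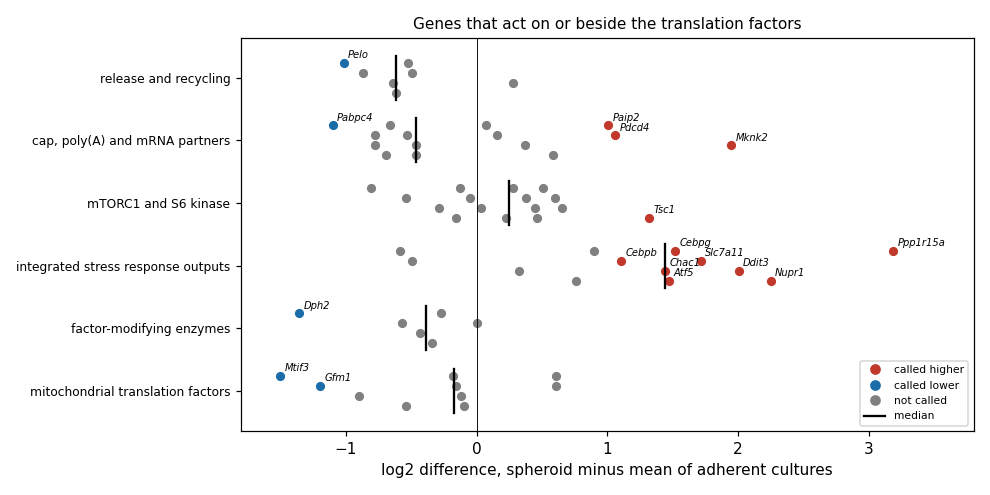
Log2 difference of spheroid from the mean of both adherent cultures (horizontal axis) for each tested gene of 6 lists around the translation factors (rows), with genes that rose in red, genes that fell in blue, others in grey and the list median as a black bar. Stress response outputs have a median of 1.44, and the release and recycling list one of -0.61.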

How the data were processed

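Per the file headers, the authors deposited a non-normalized table of bead intensities with detection p-values, and a table of normalized intensities, whose normalization method is not given in the sources used here. Per the labels' protocols, a QIAGEN miRNeasy kit gave the RNA and an Ambion MessageAmp kit the biotin-labelled cRNA. From the non-normalized values, limma 3.58.1 (R 4.3.3) was run as follows: neqc (background from the detection p-values, offset 16, quantile-normalized log2 values over 12 arrays), then probes with detection p under 0.05 on every replicate array of 1 culture or more (18950 of 45135), then the brightest passing probe per gene over the 9 replicate arrays. Gene names came from the platform annotation, where 34773 probes had 1 symbol, 18 several and 10344 none here. The 63 genes had 124 probes.

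The model gave each culture a mean over its replicate arrays (9 in all; lmFit, eBayes with an intensity trend), without the pools. P-values were adjusted (Benjamini-Hochberg) over 10112 genes, and a call needed at least a 2-fold difference with an adjusted p under 0.05. ± is the standard error of the fit. The offset shrinks differences of dim genes, and array scaling hides any change in total mRNA per cell. Where a gene was undetected on a whole culture, that side was raised, array by array, to the lowest signal of any detected probe where its own was below that. Members, lists and markers were chosen with earlier results of these data known. Members were described in full where they were called, or lay at an extreme of their complex; genes added for contrast (Eif4a1, Eif4a2, Eif4e, Eif5b, Eif3f, Eif2ak2, Eif4ebp1) were chosen after their values were seen. The fit was also run on simulated data with planted differences larger than 2-fold, so that run does not bear on the smaller shifts described here.

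Between 43.1% and 49.1% of probes were detected per array, and 3 arrays per culture limit the precision. The correlation across tested genes was 0.975 to 0.994 within adherent mouse 2 and 0.989 to 0.993 within the other cultures. Replicate numbers were not treated as pairs: deviations of same-numbered arrays of mouse 1 correlated at 0.03, -0.04 and 0.07.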

Additional observations from a re-analysis of the deposited data

How the results depend on the processing

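Counts below are members that rose and fell by the call rule, in place of 1 and 8 against the adherent average, 0 and 10 against adherent mouse 1, 2 and 7 against adherent mouse 2, and 0 and 0 between the adherent cultures. Median scaling gave 0 and 23 against the average, 18 falls against mouse 1, and 1 and 26 against mouse 2, where 23%, 20.7% and 26.3% of all genes fell. Cyclic loess gave 5 falls against the average and 4 against mouse 1 (10.5% and 10.7% of all genes). Without background correction the counts were 0 and 5 against the average, 2 falls against mouse 1 and 0 rises against mouse 2, and the authors' normalized values gave 0 and 5, 5 falls, and 1 rise. Of all genes 5.85% and 6.23% fell without background correction and 6.85% and 7.36% in the authors' values, against the average and mouse 1. An offset of 50 and the pool arrays (with no test) each left 0 rises against the average and 0 against mouse 2. Requiring detection on all 9 replicate arrays left 0 and 1 rises there. With no fold limit the counts were 6 and 33, 5 and 32, 4 and 29, and 4 and 5 between the adherent cultures. Leaving out 1 replicate array at a time gave 0 to 1 rises and 7 to 9 falls against the average, 0 to 1 and 8 to 10 against mouse 1, 1 to 2 and 7 to 9 against mouse 2, and 0 throughout between the adherent cultures. No called member changed direction under any setting run. A fit of the 6 arrays of mouse 1 with the replicate number as a block gave 0 rises and 10 falls (7 and 35 by adjusted p alone), as did the same fit without the block. The members' median stayed below that of all genes in each spheroid contrast under every setting. The cause of these shifts was not tested. Signal near background limits Eif2ak3 and Eif4e in particular, and the probes of Eif3j1 and Eif5b were also dim.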
